A study of Mus musculus with 2 samples.

Results

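The genes of telomerase and of the shelterin complex were described in MEL cells, a mouse erythroleukemia line that is established and immortal. The 8 genes were taken by name, and each matched 1 of the 43346 genes in the tables: Tert, Terf1, Terf2, Terf2ip, Tinf2, Acd, Pot1a and Pot1b. Polyadenylated RNA was sequenced single-end in 2 libraries of 1 group, which the labels call biological replicates 1 and 2. No treatment, genotype or second cell type is given, and both cell samples trace to the same donor record, so the data give levels and the spread between replicates and compare no conditions. The libraries held 67735380 and 79923143 expected counts on genes, that is, estimated numbers of reads.

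Telomeres, the repeated DNA at chromosome ends, shorten at each round of replication unless telomerase extends them. Tert encodes the reverse transcriptase of telomerase, which copies a template within the RNA Terc. Shelterin covers the telomere and keeps repair enzymes from treating it as a break: TRF1 (Terf1) and TRF2 (Terf2) bind the double-stranded repeat, RAP1 (Terf2ip) sits on TRF2, TIN2 (Tinf2) bridges them to TPP1 (Acd), and POT1 binds the single-stranded overhang. Rodents carry a pair of POT1 genes, Pot1a and Pot1b, where humans have only POT1. Most adult human tissues hold little telomerase, while stem cells, germ cells and most immortal lines keep it active.

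The erythroid identity of the libraries was checked with marker genes. Of 12 erythroid markers 11 reached 1 TPM (a level corrected for gene length and scaled to a fixed sum per library) in both replicates, the exception being Slc4a1, and their summed level was 1301 and 1902 TPM. Of the markers of other cells, 1 of 6 myeloid (Cd68), 1 of 4 T and NK lymphoid (Lck), 0 of 4 B lymphoid and 0 of 4 stromal genes did so. Their summed levels were 5.01 and 15.4, 4.83 and 5.50, 0.140 and 0.490, and 0.250 and 0.480 TPM. The part of these cells in the levels below was not tested.

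The first bases of the annotated Terc transcript, whose start need not be that of the mature RNA, hold the template that the enzyme copies. They are printed 5′ to 3′ as DNA letters from GENCODE M21 (Terc-201, chromosome 3, minus strand, 96414437-96414859 on mm10), with the template for the telomere repeat in capitals at bases 28 to 36 of 423.
Terc-201: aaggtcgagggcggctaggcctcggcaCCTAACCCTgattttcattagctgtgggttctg
The first 120 coding bases of the POT1 genes follow from the same source, with the positions at which they differ in capitals. They are shown because the levels of these genes can be compared only if reads can tell them apart.
Pot1a-203: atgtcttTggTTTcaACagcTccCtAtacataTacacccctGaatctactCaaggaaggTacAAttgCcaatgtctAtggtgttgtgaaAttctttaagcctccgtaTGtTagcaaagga
Pot1b-201: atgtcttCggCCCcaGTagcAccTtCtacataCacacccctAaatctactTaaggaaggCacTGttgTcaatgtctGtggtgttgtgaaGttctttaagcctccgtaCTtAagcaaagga
The sequences differed at 21 of these 120 bases and were identical at 78.8% of 1917 aligned bases of the whole coding sequence, with a longest identical run of 41 bases. No stretch of 45 bases, the read length to which the files' effective lengths correspond, was shared between the coding sequences. The deposited posterior SD of the count, which measures uncertainty in assigning reads, was 0 in both replicates for both genes. It was also 0 for Tert, Terf2, Tinf2 and Acd, and at most 2.54 reads for Terf1 and Terf2ip.

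Tert was the lowest of the 8 genes, and it was the only one below 1 TPM in a replicate. Tert (ENSMUSG00000021611.8; chromosome 13, 73626911-73649843) was measured at 0.76 TPM in replicate 1 and 1.11 TPM in replicate 2, a mean of 0.935 ± 0.247 (SD, n = 2). The estimate rested on 119 reads (exact 95% Poisson interval 98.6 to 142) and 221 reads (193 to 252), so it was detected in both libraries well above the 3 counts that a count of 0 allows. These intervals and limits cover counting error only. The deposited credibility intervals of TPM, 0.620 to 0.888 and 0.953 to 1.24, did not overlap. Nor did those of any other member, so this was not particular to Tert, and the share over all genes was not computed. Of the protein-coding genes, 52.0% had a lower mean TPM than Tert. All of its reads lay on Tert-201, the only Tert transcript listed in the files, with 3426 bases against 4313 in the later annotation, so reads from the remainder were not counted.

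The double-strand binders Terf1 and Terf2 were the highest members by mean, but Acd was the highest in replicate 2. Terf1 (ENSMUSG00000025925.10; chromosome 1, 15805646-15844052) had 55.97 TPM in replicate 1 and 31.4 TPM in replicate 2, a mean of 43.7 ± 17.4 (SD, n = 2). Terf2 (ENSMUSG00000031921.13; chromosome 8, 107069400-107096547) stood at 37.2 and 27.7 TPM, a mean of 32.4 ± 6.78. Both were higher in replicate 1. Ratios between genes were taken of TPM plus a pseudocount of 0.1, which lowers those over a gene as low as Tert. The log2 ratio of Terf1 over Terf2 was 0.39 ± 0.28 (1.31-fold), positive in both replicates but smaller than the spread between replicates as defined below.

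Terf2ip, whose product RAP1 is recruited by TRF2, had a lower level than Terf2 in both replicates, by less than the spread defined below. Terf2ip (ENSMUSG00000033430.9; chromosome 8, 112011398-112020528) stood at 12.6 and 10.3 TPM, a mean of 11.5 ± 1.61 (SD, n = 2), with the smallest spread relative to its mean of the 8 genes. Terf2 exceeded it 2.94-fold in replicate 1 and 2.66-fold in replicate 2, a log2 ratio of 1.49 ± 0.10 against a limit of 1.61. The ratio did pass the limit at a pseudocount of 1 (1.42 against 1.39) and that from genes of at least 10 TPM (1.49 against 1.41). In the later annotation 108 exonic bases of Terf2ip overlap the gene model Gm6793 on the other strand, which stood at 0.685 TPM.

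The genes of the bridging proteins had nearly the same mean level, but not the same order in the replicates. Tinf2 (ENSMUSG00000007589.8; chromosome 14, 55674689-55681820) stood at 23.1 and 30.2 TPM, a mean of 26.6 ± 5.01 (SD, n = 2). Acd (ENSMUSG00000038000.9; chromosome 8, 105695860-105701102) stood at 19.6 and 37.4 TPM, a mean of 28.5 ± 12.6. Tinf2 was the higher of these genes in replicate 1 and Acd in replicate 2. Both levels carry a doubt from annotation, since the use of strand is not given in the sources used here. In GENCODE M21, 31.2% of the exonic bases of Tinf2 overlap Gmpr2 on the other strand (27.3 ± 0.919 TPM). For Acd, 33.3% overlap Carmil2 (34.9 ± 13.9 TPM). These are shares of all exons in that annotation (4938 and 3625 bases), and the overlap of the listed transcripts was not measured. The posterior SD of the count was 0 for Tinf2 and Acd in both replicates, so no uncertainty in assigning their reads was recorded. The listed transcripts, of 1736 bases for Tinf2 and 1425 for Acd, were also shorter than the 2956 and 3154 bases of their later versions.

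Of the POT1 genes, Pot1a made up most of the RNA. Pot1a (ENSMUSG00000029676.11; chromosome 6, 25743737-25809246) stood at 26.7 and 16.6 TPM, a mean of 21.6 ± 7.16 (SD, n = 2). Pot1b (ENSMUSG00000024174.8; chromosome 17, 55651951-55712628) stood at 4.92 and 3.16 TPM, a mean of 4.04 ± 1.24. Pot1a exceeded Pot1b 5.34-fold in replicate 1 and 5.11-fold in replicate 2, so that it held 84.2% ± 0.325 of the summed TPM of the pair. This ratio had the smallest spread of the 28 pairs of members, with a log2 value of 2.38 ± 0.04, although each gene on its own differed between the replicates by over 1.5-fold. Mouse POT1a is known for keeping the telomere from activating the ATR kinase, and POT1b for limiting the trimming of the strand that leaves the overhang.

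**Figure D1:**
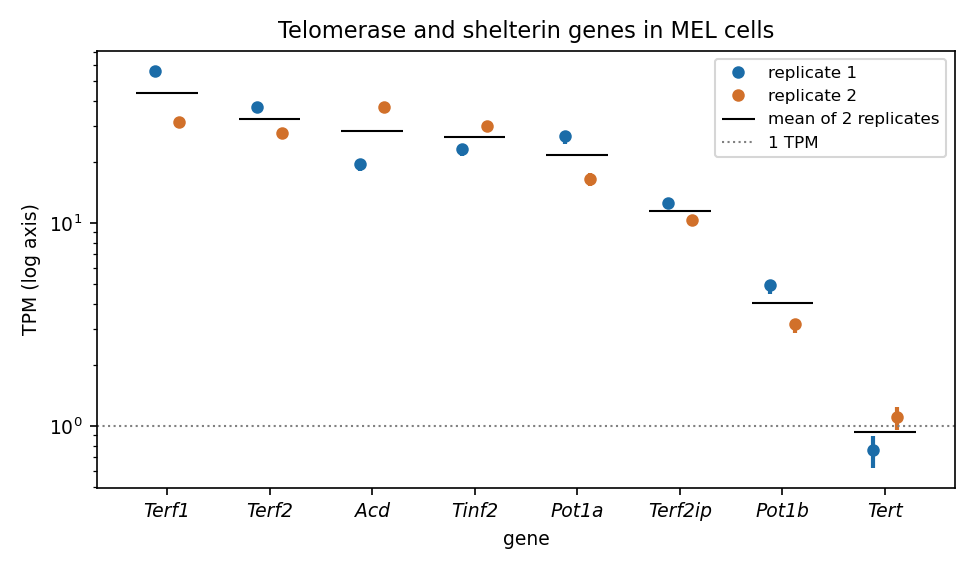
Levels of the 8 genes in TPM on a log axis, with a point per replicate, a black line at the mean of the 2 replicates and a vertical bar for the deposited credibility interval of each library. The genes run from Terf1 at 43.7 TPM to Tert at 0.935, which is the only gene with a point under the dotted line at 1 TPM.

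A level of 1 TPM or more in each replicate was reached by 7 of the 8 genes, against 46.8% of 21474 protein-coding genes and 26.9% of all genes. At 10 TPM in both, 6 were, against 31.4% of protein-coding genes. With replicate 2 alone, all 8 reached 1 TPM. The median of the mean TPM over the 8 genes was 24.1, close to the 23.0 of the detected protein-coding genes and above the 0.49 of all protein-coding genes. The 7 shelterin genes summed to 180 TPM in replicate 1 and 157 in replicate 2, or 237 and 141 times the TPM of Tert with no pseudocount. Within that sum Terf1 held 25.6% ± 7.80, Terf2 19.2% ± 2.14, Acd 17.4% ± 9.19, Tinf2 16.0% ± 4.55, Pot1a 12.7% ± 3.01, Terf2ip 6.79% ± 0.286 and Pot1b 2.37% ± 0.506 (SD, n = 2). These are shares of RNA and say nothing of the proteins' ratio.

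The order of mean levels was Terf1, Terf2, Acd, Tinf2, Pot1a, Terf2ip, Pot1b and Tert. Most neighbours in it did not stand apart by a limit taken from the spread of genes between the replicates. That limit is not the SD of the pair itself, which some of these neighbours exceeded. A pair was said to stand apart when its log2 ratio of TPM had 1 sign throughout and a mean above 1.61 (3.06-fold). Of 12325 genes, 95% differed by less than that between the replicates. By that rule 13 of 28 pairs stood apart. No p accompanies the pairs, because 2 replicates cannot bring a two-sided exact sign-flip test below 0.5. Among the 7 neighbouring pairs only Pot1b over Tert stood apart, at a log2 ratio of 1.99 ± 0.79 (3.97-fold). Replicate 1 alone gave 2.55 and replicate 2 alone 1.43, under the limit.

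All 7 shelterin genes stood apart from Tert, from Pot1b at the low end to Terf1 at 5.36 ± 0.94 (41.2-fold). Pot1b stood apart from each of the other shelterin genes except Terf2ip, whose log2 ratio over Pot1b was 1.51 ± 0.24 (2.84-fold) and reached 1.68 in replicate 2 alone. Of the 15 pairs among the remaining 6 shelterin genes, 1 stood apart: Terf1 over Terf2ip at 1.87 ± 0.39 (3.66-fold), with 1.60 in replicate 2 alone. In 6 pairs the sign changed between replicates, and Acd or Tinf2 was in each of them. Acd over Terf2ip, at 1.24 ± 0.86, passed the limit with replicate 2 alone at 1.85.

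Of the 8 genes, 3 had several listed transcripts, and for these the division of TPM differed between the replicates. Reads were assigned to transcripts with less certainty than to genes, and the posterior SD reached 186 reads for Terf2-204 in replicate 2. Terf1-201, a protein-coding transcript of 1581 bases, held most of the TPM of Terf1 in both replicates, at 66.6% and 59.1%. The rest lay in replicate 1 on the protein-coding Terf1-203 (33.1% against 4.07% in replicate 2). In replicate 2 it lay on Terf1-202, a processed transcript without an annotated coding sequence (0.125% against 36.7%). The protein-coding transcripts of Terf1 together thus had 55.8 TPM in replicate 1 and 19.9 TPM in replicate 2.

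Terf2 had no transcript that led in both replicates. Terf2-207, annotated as a target of nonsense-mediated decay, which destroys RNAs with an early stop codon, held 52.7% of the TPM of Terf2 in replicate 1 and 11.3% in replicate 2. The protein-coding Terf2-203 held 24.5% and 35.6%. Protein-coding transcripts of Terf2 together stood at 15.2 and 23.0 TPM, the opposite order of the gene's total. Pot1a-203, a protein-coding transcript of 3151 bases, led in both replicates with 68.2% and 53.4%, and by expected counts in place of TPM its mean share was 76.5% in place of 60.8%. The short processed transcript Pot1a-208 held 21.4% and 4.16%, and the protein-coding Pot1a-209 held 0% and 22.3%. Protein-coding transcripts of Pot1a together held 69.7% of its TPM in replicate 1 and 76.5% in replicate 2. Retained-intron transcripts held 13.6% ± 6.55 of the TPM of Pot1a, 5.90% ± 0.618 of that of Terf2 and 0.128% ± 0.0462 of that of Terf1 (SD, n = 2).

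**Figure D2:**
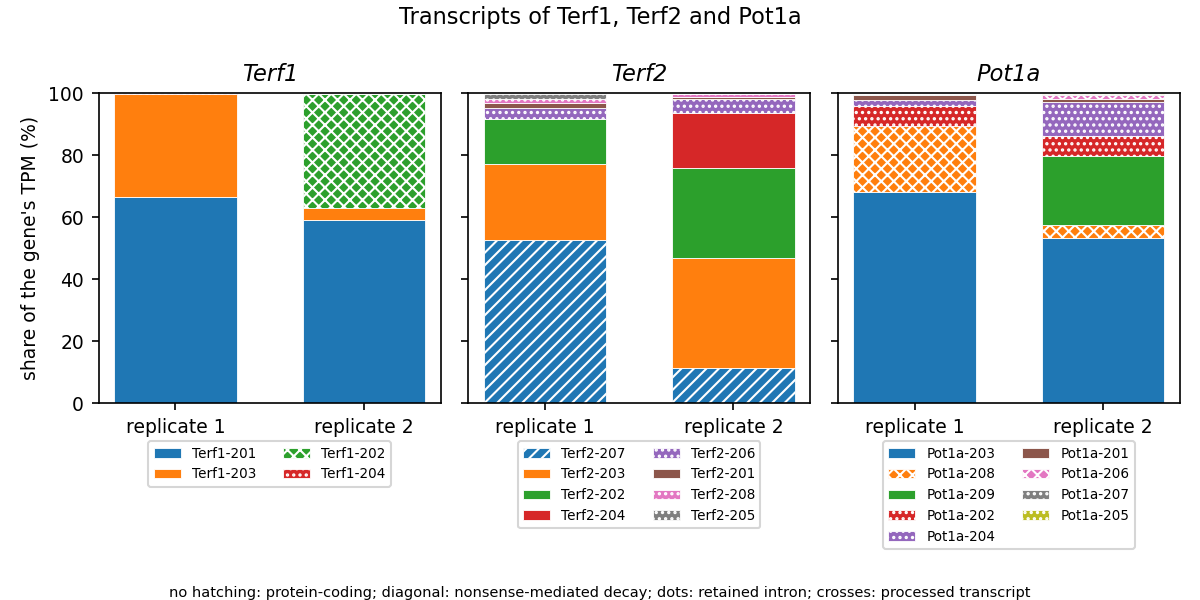
Share of each gene's TPM, in percent, on its listed transcripts in replicates 1 and 2, as stacked bars with hatching by transcript type. Terf1-201 and Pot1a-203 hold the majority in both replicates, while Terf2-207 holds 52.7% of Terf2 in replicate 1 and 11.3% in replicate 2.

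The other 5 genes have 1 listed transcript each, so their TPM could lie on no other. The later annotation lists 7 transcripts for Tert, 9 for Tinf2, 5 for Acd, 5 for Pot1b and 2 for Terf2ip.

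Between the replicates, 3 of the 8 genes were higher in replicate 2 and 5 in replicate 1. For 15251 genes the rounded expected counts were put to an exact binomial test (two-sided, conditional on the sum) with Benjamini-Hochberg adjustment, which compares these 2 libraries and not conditions. Its p-values cover counting error only. Called were differences of at least 2-fold at an adjusted p under 0.05. These folds are of counts scaled between the libraries and not of TPM, in which Terf1 (55.97 and 31.4) stayed under 2-fold. Only Terf1 was called, 2.36-fold higher in replicate 1 (log2 of replicate 2 over replicate 1 -1.24, adjusted p = 7.54e-272). This 1 of 8 stands against 19.5% of all tested genes, 11.9% higher in replicate 1 and 7.57% higher in replicate 2. Next came Acd at 0.93 (1.90-fold higher in replicate 2, adjusted p = 8.02e-87) and Pot1a at -0.77 (1.70-fold higher in replicate 1, adjusted p = 2.77e-84).

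Smaller differences were those of Pot1b at -0.65, Tert at 0.53 (adjusted p = 0.00172), Tinf2 at 0.38, Terf2ip at -0.29 and Terf2 at -0.29. With no fold threshold all 8 had an adjusted p under 0.05, as did 77.2% of all tested genes. The median absolute log2 difference was 0.59 for the 8 genes and 0.59 for all tested genes. With library totals in place of TMM scaling, which moved the median difference of all tested genes from 0.02 to 0.14, Acd also passed 2-fold at 1.05.

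The genes higher in replicate 2 were those with the highest GC content. The 3 genes higher in replicate 2, Acd, Tert and Tinf2, had GC contents of 56.6%, 54.1% and 53.4%. The 5 higher in replicate 1 had 50.7% (Terf2ip), 49.3% (Terf2), 43.7% (Pot1b), 43.4% (Pot1a) and 41.8% (Terf1). Across all tested genes the median log2 difference went from -0.85 in the 2303 genes of 40 to 45% GC to 0.69 in the 3131 genes of 55 to 60%. Terf2ip went against its class, since the 4337 genes of 50 to 55% GC had a median of 0.26. After removal of this trend, no member reached 2-fold, and the log2 differences lay between -0.31 (Terf2ip) and 0.28 (Acd), with Terf1 at -0.28. Among all genes 7.85% were called in this way. With no fold threshold 4 of the 8 genes still had an adjusted p under 0.05 by the binomial test, against 62.1% of all genes, and the same number had an unadjusted p under 0.05, against 64.5%. The edgeR exact test was run with a dispersion that takes both replicates as 1 group. That dispersion was set by the same difference between the replicates that was tested, so only genes beyond it can be called. It called 0 of the 8 and 0.787% of all genes, which does not decide whether Terf1 differed. At an unadjusted p under 0.05 there were 0 of the 8 and 3.32% of all genes, and the adjusted p of Terf1 was 0.998.

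**Figure D3:**
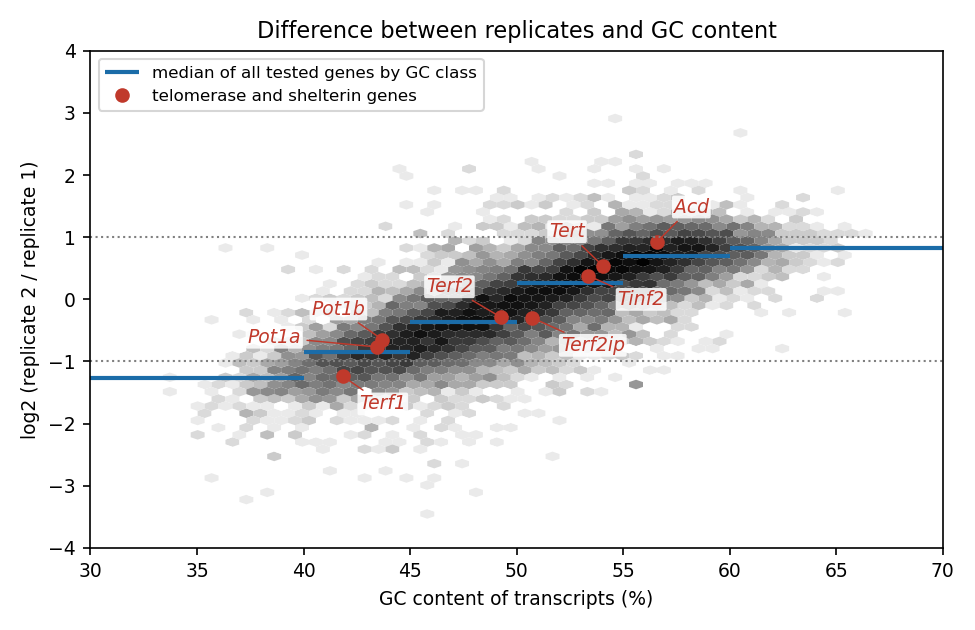
Log2 ratio of replicate 2 over replicate 1 against the GC content of a gene's transcripts in percent, with all tested genes as grey density, their medians by GC class as blue lines and the 8 genes as red points. Dotted lines mark 2-fold, genes beyond the axes are not drawn, and the red points run from Terf1 at 41.8% GC and -1.24 to Acd at 56.6% and 0.93.

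Most other components and partners of telomerase were more abundant than Tert. Of 19 partners and assembly factors, all reached 1 TPM in both replicates and 16 reached 10, with a median of 34.1 TPM. Of all protein-coding genes 46.8% reached 1 TPM and 31.4% reached 10, and the detected ones had a median of 23.0 TPM. These values are the background for the lists that follow as well. The highest were the RNA-binding protein gene Hnrnpa1 at 808 ± 107 TPM (SD, n = 2), Nhp2 at 521 ± 50.1 and Gar1 at 323 ± 38.3 of the H/ACA proteins that hold Terc, and the AAA ATPase gene Ruvbl2 at 337 ± 149. Dkc1, the pseudouridine synthase that stabilises Terc, stood at 407 and 185 TPM, and Wrap53, which brings telomerase to Cajal bodies, at 9.73 and 18.7. The lowest were Smg6 at 12.9 ± 2.18, Tep1 at 2.98 ± 0.424 and Terc itself.

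Terc stood at 1.49 TPM from 26 reads in replicate 1 and 3.36 TPM from 75 reads in replicate 2, a mean of 2.42 ± 1.32. Its log2 ratio over Tert, 1.20 ± 0.44 (2.30-fold), was below the limit for pairs that stand apart. Mature Terc carries no poly(A) tail, so a library of polyadenylated RNA does not measure its full amount. Between the replicates 2 of 19 were called (10.5%, against 19.5% of all tested genes). These were Dkc1, 2.10-fold higher in replicate 1, and Terc, whose transcript has 67.1% GC, 2.22-fold higher in replicate 2 (adjusted p = 0.000403 by the exact binomial test).

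Genes that finish and cap the telomere end were all detected, 14 of 14, with a median of 44.9 TPM. The highest were the flap endonuclease gene Fen1 at 98.1 ± 16.0 TPM, the exonuclease gene Exo1 at 85.2 ± 32.0 and the primase and polymerase alpha genes Prim1 at 67.9 ± 19.4 and Pola2 at 66.4 ± 18.7. The genes of the CST complex, which fills in the strand opposite the overhang, stood at 44.1 ± 9.61 for Ten1, 35.3 ± 14.4 for Ctc1 and 8.87 ± 1.99 for Stn1. Stn1 was the lowest of the list, next to Dclre1b, the nuclease Apollo that TRF2 recruits, at 12.4 ± 0.205 and the helicase gene Wrn at 29.2 ± 11.1. Pola1, 2.27-fold higher in replicate 1, was the only one of the 14 called (7.14%, against 19.5%).

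Regulators of shelterin and other telomere binders were detected in 16 of 16 cases (median 20.9 TPM). Mre11a and Rad50, which detect DNA ends together with Nbn, stood at 112 ± 62.3 and 37.9 ± 18.6 TPM. The deubiquitinase gene Usp7 stood at 107 ± 51.2 and Rif1 at 40.3 ± 22.7. The tankyrase gene Tnks2, whose product releases TRF1 from telomeres in human cells, stood at 53.4 ± 4.52. Lowest were Nek7 at 11.6 ± 6.71, the tankyrase-binding Tnks1bp1 at 6.94 ± 1.48 and Fbxo4, which marks TRF1 for breakdown, at 6.45 ± 1.28. This list had 7 called genes of 16 (43.8%, against 19.5% of all tested genes). Usp7, Rif1, Rad50, Rlim, Atm and Nek7, with GC contents up to 45.1%, were higher in replicate 1, and the telomere-binding zinc finger gene Zbtb48, at 57.9% GC, was higher in replicate 2.

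Genes of the recombination-based route, by which some cancers keep telomeres without telomerase, were detected in 13 of 13 cases (median 35.6 TPM). Loss of ATRX or DAXX often marks that route in human tumours. RNA of both genes was detected here, Atrx at 80 and 26.3 TPM and Daxx at 29.99 and 50.5. Their order differed between the replicates, with a log2 ratio of Atrx over Daxx of 1.41 in replicate 1 and -0.94 in replicate 2. RNA levels do not show whether the proteins worked, and use of that route was not tested. Atrx, at 41.9% GC, was 3.29-fold higher in replicate 1 and the only called gene of the 13 (7.69%, against 19.5%). The replacement histone H3.3 genes H3f3a and H3f3b led the list at 602 ± 117 and 494 ± 126 TPM, followed by Rad51ap1 at 65.6 ± 32.2. Lowest were Smarcal1 at 19.0 ± 3.31, Rad52 at 15.1 ± 0.495 and Sp100 at 6.75 ± 2.65.

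Of 20 genes described as regulators of Tert, 16 were detected (median 22.8 TPM). Myc, an activator of Tert that binds E-boxes, led at 221 and 290 TPM, a mean of 256 ± 48.2. It was followed by Ctnnb1 at 173 ± 54.6, Tcf3 at 139 ± 77.7 and Max, the partner of Myc, at 108 ± 12.9. Mycn, Wt1, Klf4 and Zfp42 had 0 counts in both replicates, which allows a share of up to 4.43e-06% in replicate 1 and 3.75e-06% in replicate 2. Of the 16 tested 4 were called (25.0%, against 19.5%), Tcf3 and the Myc antagonist gene Mnt, higher in replicate 2, and Gabpa and Sp3, higher in replicate 1. In all, 15 of the 78 tested genes of these 5 lists were called (19.2%), close to the 19.5% of all tested genes. After removal of the GC trend 0 of the 78 were called, against 7.85% of all genes. By the binomial test 61 then had an unadjusted p under 0.05 (78.2%, against 64.5% of all genes). The edgeR exact test also called 0, against 0.787% of all genes, with 1 at an unadjusted p under 0.05 (1.28%, against 3.32%).

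**Figure D4:**
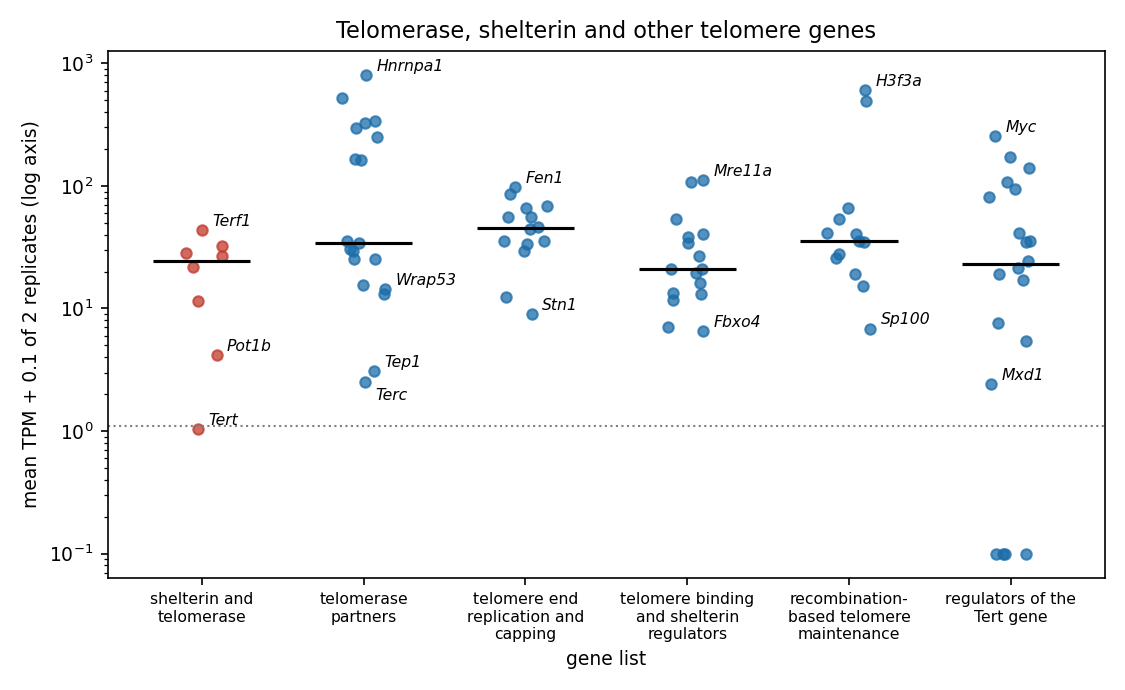
Mean TPM of the 2 replicates plus 0.1, on a log axis, for the genes of the 6 lists, with the telomerase and shelterin genes in red and a black line at each list's median. Tert lies below the dotted line at 1 TPM, while the 4 points at the bottom right are the genes with 0 counts.

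RefSeq promoter windows (GRCm38.p6, 250 bases before to 50 after the start, the first listed per gene) were given for 7 of the 8 genes: Tert, Terf2, Terf2ip, Tinf2, Acd, Pot1a and Pot1b. They were searched on both strands for letters of factors in the list above and of common promoter elements. The GC content of the windows was 60.7% for Pot1a, 58.7% for Tinf2, 58.0% for Pot1b, 57.3% for Tert and 55.3% for Terf2ip. For Terf2 it was 52.7% and for Acd 48.0%, against a median of 52.7% over all windows. The part of GC content in the matches was not tested. The E-box letters CACGTG, bound by Myc with Max, were in 0 of the 7 windows and in 7.24% of 27025 windows of all genes. TATAAA was in 0 of 7 and in 14.2% of all. The GC box letters CCGCCC, bound by Sp1 and Sp3, were in 5 of 7 (35.9% of all), and 2 copies lay in the window of Tert, where the capitals mark them (chr13:73626661-73626960, plus strand).
Tert promoter: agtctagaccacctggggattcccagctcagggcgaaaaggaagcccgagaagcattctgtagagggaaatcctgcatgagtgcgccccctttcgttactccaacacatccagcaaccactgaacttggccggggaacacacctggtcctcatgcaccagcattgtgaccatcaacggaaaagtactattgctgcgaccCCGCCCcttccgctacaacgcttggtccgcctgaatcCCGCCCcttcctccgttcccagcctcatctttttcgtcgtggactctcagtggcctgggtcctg

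CCGGAAG, bound by ETS factors such as GABPA, was in 3 of 7 windows (9.12% of all), those of Terf2ip, Tinf2 and Pot1b, and CCAAT in 3 of 7 (37.9% of all). The letters CGCANGCG, the core bound by the factor NRF1, were searched after the windows had been read. They were in the windows of Terf2ip, Pot1a and Pot1b, 3 of 7, against 8.42% of all windows. The windows of the POT1 genes are shown on their minus strands, with those letters in capitals, since they hold the same CGCATGCG although the genes lie on different chromosomes and differ over 5-fold in level (chr6:25809169-25809468 and chr17:55712587-55712886).
Pot1a promoter: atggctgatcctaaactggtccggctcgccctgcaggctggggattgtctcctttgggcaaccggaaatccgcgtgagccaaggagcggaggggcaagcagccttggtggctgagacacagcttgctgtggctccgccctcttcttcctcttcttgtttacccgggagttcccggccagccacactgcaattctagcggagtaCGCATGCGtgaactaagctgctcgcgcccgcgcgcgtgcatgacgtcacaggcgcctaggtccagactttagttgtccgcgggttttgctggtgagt
Pot1b promoter: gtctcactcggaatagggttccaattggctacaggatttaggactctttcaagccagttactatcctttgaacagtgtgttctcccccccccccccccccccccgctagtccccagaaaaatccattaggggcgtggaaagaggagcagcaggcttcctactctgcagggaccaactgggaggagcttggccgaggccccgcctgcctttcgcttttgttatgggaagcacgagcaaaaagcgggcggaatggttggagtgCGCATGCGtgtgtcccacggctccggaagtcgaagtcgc
A match of letters is a description of these windows and does not show that a factor was bound there.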

How the data were processed

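The authors aligned reads to mm10 and its transcriptome and quantified them with the GENCODE M4 annotation, per the text that accompanies each sample. Which programs aligned and quantified, and whether strand was used, is not given in the sources used here. Deposited expected counts are estimated reads. The deposited TPM and FPKM were scaled by effective length, and TPM also to a fixed sum per library. The deposited percent column (share of a gene's TPM) was recomputed from TPM, and the deposited score columns hold credibility bounds, posterior SD and effective lengths. Spike-ins and features with purely numeric identifiers were left out, and TPM was not rescaled. Symbols came from a table of gene names and positions, transcript names and GC content from GENCODE M21 on mm10, matched without version (42462 genes with a symbol, GC for 99.0% of 15251 tested genes). Listed Papd5 was matched as Tent4b.

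The members and lists were chosen with earlier results of these data known. Named are all 8 members, of each list the 4 highest and 3 lowest genes and those called, and 7 genes named in any case, with the 2 leading transcripts of each member. Ten1, Terf1-202, Terf2-204, Pot1a-209, and the overlapping and neighbouring genes were named after their values were seen. The NRF1 letters were named after the promoter windows were read. No gene was sought for a pattern like a member's, since 2 replicates of 1 group hold none. Ratios of TPM used a pseudocount of 0.1. The binomial test used rounded expected counts with a sum of at least 20, TMM in edgeR 4.0.16 and a prior count of 0.5. Lowess (fraction 0.3) gave the GC trend. Nothing says that the replicates were separate cultures, so their spread may be partly technical. The alternatives were other units, pseudocounts, scalings (DESeq2 1.42.0), count minimums and tests, and each replicate left out. Scripts ran in R 4.3.3 and Python 3.11.15, with scipy 1.17.1 for the binomial test and statsmodels 0.14.6 for lowess.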

Additional observations from a re-analysis of the deposited data

How the results depend on the processing

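The number of genes called between the replicates was 2976 of 15251 (19.5%) as reported and 3122 of 15251 with library totals. It was 1186 of 15102 (7.85%) with the GC trend removed. The edgeR exact test gave 120 of 15251 (0.787%), and no fold threshold 11773 of 15251 (77.2%). DESeq2 size factors gave 2980 of 15251, and count minimums of 1 and 100 gave 3235 of 22857 and 2158 of 12361. The number of members called was 1 as reported, 2 with library totals, 0 with the GC trend removed, 0 by the edgeR exact test and 8 with no fold threshold. DESeq2 size factors and count minimums of 1 and 100 left it at 1. The edgeR dispersion was set by the same difference between the replicates that was tested, so that test calls only genes beyond it. The number of pairs standing apart was 13 under all alternatives run except the spread of genes with at least 10 TPM, which gave 15. That spread added Terf2 over Terf2ip and Terf2ip over Pot1b. The pairs also changed where the number did not. At a pseudocount of 1, with a limit of 1.39, Pot1b over Tert fell out (log2 1.36) and Terf2 over Terf2ip came in (1.42). With replicate 2 alone, Pot1b over Tert (1.43) and Terf1 over Terf2ip (1.60) fell below the limit of 1.61. Acd over Terf2ip (1.85) and Terf2ip over Pot1b (1.68) passed it. FPKM gave lower levels than TPM for every member (0.67 for Tert, 22.8 for Terf2), and 7 members again reached 1. Detection of the 5 other lists stayed within 1.5 times at all minimums and units run. The test between replicates cannot be repeated without a replicate, nor the comparison of leading transcripts. No paired analysis was possible because there is only 1 group. Depth limits what can be said of low genes such as Tert and Terc, with 119 and 26 reads in replicate 1, and of the 4 listed genes with 0 counts.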

Other observations

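Some of the 8 genes start close to another gene on the opposite strand. In GENCODE M21, Terf2ip and Kars, which encodes the lysyl-tRNA synthetase, start 75 bases apart on chromosome 8, and Acd and the polarity gene Pard6a 46 bases apart on the same chromosome. For 10.9% of 21951 protein-coding genes another one starts within 1000 bases on the other strand. Kars had 289 TPM in replicate 1 and 260 TPM in replicate 2, a mean of 275 ± 20.4 (SD, n = 2), against 11.5 ± 1.61 for Terf2ip. Pard6a stood at 7.32 and 11.9 TPM, a mean of 9.59 ± 3.21, against 28.5 ± 12.6 for Acd. Kars was thus the higher gene of its pair and Acd of the other, in both replicates.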
